A study of Mus musculus with 15 samples.

Results

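The 8 genes described here, all of cholesterol synthesis and its control, were followed in mouse embryonic stem cells (ESCs) that lost the pluripotency factor OCT4 by 2 routes. They were the 6 enzyme genes Hmgcs1, Idi1, Fdft1, Sqle, Lss and Cyp51 and the 2 regulator genes Srebf2 and Insig1, chosen by name as members of the sterol pathway from the 48709 genes counted. All 8 of the 8 were measured in all 15 RNA-seq libraries and passed the filter on low counts, with between 1349 and 32655 reads per gene and library. In the CreER line (Oct4 Fl/- with a CAG-driven CreER, mixed 129SV and C57BL/6 background), 500 nM 4-hydroxytamoxifen (4-OHT) activated the recombinase that deletes the remaining Oct4 allele, and cells were taken at 0, 12, 18, 24 and 36 h with 2 replicates each. In the O4AID line (Oct4-/-, 129SV), a Tet-OFF Oct4 transgene was held silent with doxycycline and the only OCT4 came from a CAG-driven fusion to an auxin-inducible degron, which CAG-driven Tir1 targets for degradation when 500 µM of the auxin IAA is added. These cells were taken at 0, 1.5, 6, 10 and 24 h with 1 library each, so no value of this line has a replicate check. All groups of both lines grew in N2B27 medium with PD03, Chiron and LIF on gelatin, every O4AID group including 0 h carried doxycycline and both transgenes, and each route was studied in a single line. Neither line has a later library without 4-OHT or IAA. The drug, the hours in culture and the loss of OCT4 therefore cannot be told apart in these libraries.

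Cells make cholesterol from acetyl-CoA through mevalonate and squalene to lanosterol, and then to cholesterol. SREBP2, the product of Srebf2, is a membrane-bound transcription factor that SCAP escorts to the Golgi for cleavage when sterols are low, and INSIG1 retains the SCAP-SREBP complex in the endoplasmic reticulum when sterols are high. The released SREBP2 fragment binds sterol regulatory elements, usually next to NF-Y (CCAAT) and Sp1 (GC-box) sites, in the promoters of the synthesis enzymes, Insig1 and its own gene. Dividing cells need the pathway for new membrane.

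The promoters were read from RefSeq (GRCm38.p6, 250 bases before to 50 after each start), in which 6 of the 8 genes were matched. CCAAT was found on either strand in 6 of 6, against 37.4% of all 32851 windows, and the GC box GGGCGG in 6 of 6, against 35.7%. The sterol element core TCACNCCAC was found in 1 of 6, Hmgcs1, against 1.24% of all windows. No searched motif overlapped another in the stretches printed here. The 4 genes with the largest rise 10 h after auxin are shown, from 250 bases before the RefSeq start and ending ahead of both that start and the first base of the gene in the count annotation, with the matches to the 3 motifs in capitals. They lie at chr13:119690101-119690350 (plus strand), chr5:28071162-28071362 (plus), chr10:76531355-76531587 (plus) and chr5:4104747-4104947 (minus), and each is written 5′ to 3′ along the gene.
Hmgcs1: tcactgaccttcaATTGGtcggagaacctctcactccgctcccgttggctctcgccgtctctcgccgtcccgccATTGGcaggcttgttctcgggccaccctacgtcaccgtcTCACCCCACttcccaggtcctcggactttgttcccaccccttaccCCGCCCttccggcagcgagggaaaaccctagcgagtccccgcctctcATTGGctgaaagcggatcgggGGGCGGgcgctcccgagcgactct
Insig1: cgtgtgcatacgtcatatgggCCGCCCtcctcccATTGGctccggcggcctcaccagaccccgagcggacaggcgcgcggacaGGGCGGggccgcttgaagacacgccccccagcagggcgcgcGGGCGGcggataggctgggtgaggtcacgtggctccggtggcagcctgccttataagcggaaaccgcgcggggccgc
Lss: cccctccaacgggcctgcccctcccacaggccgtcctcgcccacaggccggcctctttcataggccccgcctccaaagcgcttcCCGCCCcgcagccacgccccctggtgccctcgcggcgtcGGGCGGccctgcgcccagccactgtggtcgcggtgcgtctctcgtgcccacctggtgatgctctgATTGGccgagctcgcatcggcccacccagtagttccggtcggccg
Cyp51: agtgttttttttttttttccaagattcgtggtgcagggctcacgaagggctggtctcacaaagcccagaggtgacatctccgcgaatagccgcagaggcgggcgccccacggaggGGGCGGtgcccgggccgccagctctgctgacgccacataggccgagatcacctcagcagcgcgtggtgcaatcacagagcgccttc
In Hmgcs1 the sterol element starts 137 bases before the RefSeq start. Insig1 has 3 GC boxes and 1 inverted CCAAT in its stretch, Lss has 2 GC boxes and 1 inverted CCAAT, and Cyp51 has 1 GC box with its CCAAT at 29 bases before the RefSeq start, outside the stretch shown. A match is a description of letters, and a missing match says nothing about the factor.

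The CreER libraries held 21.7 to 30.8 M counted reads and the O4AID libraries 40.5 to 48.7 M. Values are CPM, read counts brought to a common library total, scaled by TMM factors within each line. Pou5f1, the gene of OCT4, fell in CreER from 330 and 326 CPM at 0 h to 115 and 127 at 36 h. In O4AID it was 717 CPM at 0 h and 601 at 24 h, and there the degron acts on the protein. The 7 ESC markers summed to 2059 and 2024 CPM in untreated CreER and 5235 in untreated O4AID, so both lines carried their defining markers. That sum was 1937 and 1868 at 36 h in CreER and 2855 and 1775 in O4AID at 10 and 24 h. It includes Pou5f1, the gene deleted in CreER. At 36 h in CreER 2 of the 7 rose and 4 fell at an adjusted p of 0.05 in edgeR, against 19.4% and 17.2% of all genes. Nanog went from 577 and 575 CPM at 0 h to 668 and 644, and Tfcp2l1 from 211 and 218 to 347 and 319. Zfp42 went from 327 and 329 CPM to 228 and 217, and Sox2 from 277 and 268 to 253 and 234. Klf4 was also lower in both 36 h libraries than in both at 0 h. In O4AID all 7 were lower at 24 h than at 0 h. There Nanog went from 1304 to 382 CPM and Tfcp2l1 from 1598 to 501. The 8 trophectoderm markers summed to 269 and 263 CPM at 0 h and 521 and 576 at 36 h in CreER, and to 17.7, 34.1 and 85.4 CPM at 0, 10 and 24 h in O4AID. The 5 feeder fibroblast markers summed to between 2.43 and 10.1 CPM in all 15 libraries. The sum of the 6 primitive endoderm markers rose in both lines. It was 16.9 and 14.8 CPM at 0 h and 37.8 and 37.0 at 36 h in CreER, and 9.95, 25.2 and 42.9 CPM at 0, 10 and 24 h in O4AID. Single markers differed. At 36 h in CreER 2 of the 6 rose and 1 fell, against 19.4% and 17.2% of all genes. In O4AID 4 had at least 1 CPM, and 3 of these were past 2-fold higher at 24 h, against 4.75% of genes. The part of these shifts in cell state in the values below was not tested, and in bulk RNA fewer cells of a type and less RNA per cell cannot be told apart.

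Before treatment, all 8 genes were higher in O4AID than in CreER. With the 15 libraries scaled together, Insig1 gave 65.2 and 67.3 CPM in untreated CreER and 442 in untreated O4AID, a 6.67-fold difference. Cyp51, the lanosterol demethylase, gave 91.2 and 88.5 against 374 CPM, 4.17-fold. The other ratios were 3.14 for Lss, 2.83 for Fdft1, 2.43 for Srebf2, 2.37 for Idi1, 2.20 for Hmgcs1 and 1.86 for Sqle. Of the 8, 7 were thus past 2-fold higher, against 19.0% of 15235 genes, and for all 8 every O4AID library exceeded every CreER library, against 37.3% of genes. The lines differ in background, transgenes, doxycycline, depth and untreated marker levels, and O4AID has 1 untreated library. These differences cannot be told apart from one another and no test was made. Scaled within each line, the ESC markers summed to 2059 and 2024 CPM in untreated CreER and 5235 in untreated O4AID. The trophectoderm markers summed to 269 and 263 against 17.7 CPM.

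Per kilobase of annotated exon, the untreated levels in CreER ran from Hmgcs1 (95.1 CPM per kb) through Srebf2 (27.0), Idi1 (23.7), Sqle (22.1), Insig1 (21.4), Cyp51 (20.3) and Fdft1 (20.04) to Lss (5.26). In O4AID the order by CPM per kb was Hmgcs1 (209), Insig1 (143), Cyp51 (84.8), Srebf2 (65.6), Fdft1 (56.8), Idi1 (56.0), Sqle (41.0) and Lss (16.5). Hmgcs1 was first and Lss last in both lines, and Insig1 stood behind Srebf2, Idi1 and Sqle in CreER and ahead of them in O4AID. The last place of Lss depends on the length it is divided by, 10787 annotated bases against 2860 (Fdft1) to 5546 (Sqle) for the others. Before that division Lss gave 56.0 and 57.4 CPM in untreated CreER and Fdft1 57.2 and 57.5. In untreated O4AID they gave 178 and 162 CPM. Whether neighbours in these orders differ was not tested.

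**Figure D1:**
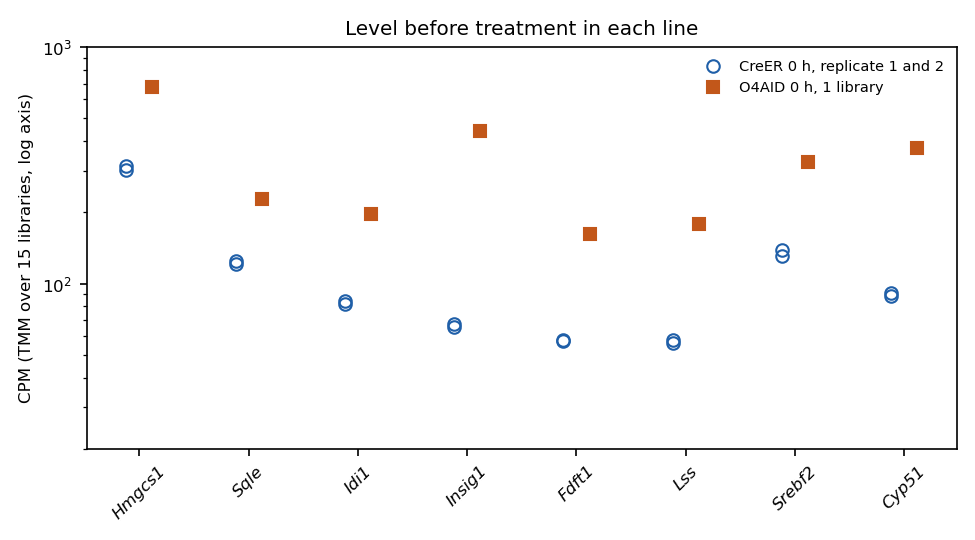
Level of the 8 genes before treatment in CPM with all 15 libraries scaled together, on a log axis. Circles are the 2 CreER replicates and squares the single O4AID library; every square lies above both circles, with the widest gap for Insig1 (6.67-fold) and the narrowest for Sqle (1.86-fold).

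The CreER time course followed the genes over 36 h of 4-OHT, while OCT4 was lost by gene deletion. The shifts were small: Fdft1 and Insig1 rose by 0.35 and 0.22 on the log2 scale by 36 h, Hmgcs1 and Cyp51 by 0.13 and 0.15, Idi1 fell by 0.16, and Sqle, Lss and Srebf2 did not pass the test at 36 h. At 12, 18, 24 and 36 h, 2, 1, 3 and 5 of the 8 passed an adjusted p of 0.05 in edgeR's quasi-likelihood test over 18969 genes. The shares of all genes tested that passed were 0.395%, 8.52%, 21.6% and 36.6%. The median log2 change of the 8 was 0.14, 0.12, 0.13 and 0.12 at the 4 times, beside 0.00, 0.01, 0.01 and 0.01 over all genes. The 4 comparisons share the 0 h libraries, so their values are not independent of each other.

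The counts at the early times rested on single libraries. At 12 h, leaving out either 12 h library or replicate 2 at 0 h gave 0 of 8, and leaving out replicate 1 at 0 h or any 18 or 24 h library gave 1. The count at 18 h was 0 without either 18 h library, 2 without replicate 1 at 0 h or replicate 2 at 36 h, and 3 without replicate 1 at 36 h. At 24 h it was 0 without replicate 2 at 24 h, 1 without replicate 1 at 24 h or replicate 2 at 0 h, and 5 without replicate 1 at 36 h. At 36 h it was 3 without replicate 2 at 0 h. Total-count scaling ended both calls at 12 h (adjusted p 0.189 for Insig1 and 0.063 for Fdft1), those of Hmgcs1 and Cyp51 at 36 h (0.531 and 0.337) and that of Fdft1 from 24 to 36 h (0.318). DESeq2 passed 1, 1, 0 and 3 of the 8 in the 4 comparisons with 0 h, with adjusted p-values of 0.0638 to 0.0927 at 24 h for the 3 genes that passed in edgeR.

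Srebf2 (chr15:82147266-82205376, plus strand), the gene of SREBP2, gave 142 and 134 CPM at 0 h, 145 and 146 at 12 h, 156 and 146 at 18 h, 149 and 153 at 24 h and 147 and 131 at 36 h. Both replicates lay above both untreated ones at 12, 18 and 24 h, while the 36 h pair overlapped them. Its log2 change was 0.13 ± 0.05 (SE) at 24 h with an adjusted p of 0.0578 and 0.02 ± 0.05 at 36 h with an adjusted p of 0.79. It passed at no time in the main fit.

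Insig1 (chr5:28071363-28078662, plus strand), the sterol-sensitive brake on SREBP2 and itself an SREBP target, gave 66.9 and 69.2 CPM at 0 h, 77.8 and 79.2 at 12 h, 77.7 and 78.7 at 18 h, 75.2 and 73.0 at 24 h and 78.5 and 78.4 at 36 h. All 8 treated libraries lay above the 2 untreated ones. The rise was 0.21 ± 0.05 (SE) at 12 h, with an adjusted p of 0.0397, and 0.20 ± 0.05 at 18 h, with 0.00546. The change was 0.12 ± 0.05 at 24 h, where the adjusted p of 0.0574 missed the threshold, and the rise 0.22 ± 0.05 at 36 h, with 0.000626. The 12 h call was lost without any 1 of the 0, 12, 18 and 24 h libraries, with adjusted p-values up to 0.369, and the 18 h call without either 18 h library (adjusted p 0.0514 and 0.0592). The 36 h call held in each alternative tried.

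Hmgcs1 (chr13:119690462-119708086, plus strand) makes HMG-CoA, an early intermediate of the pathway. It gave 310 and 322 CPM at 0 h, 340 and 348 at 12 h, 336 and 338 at 18 h, 351 and 340 at 24 h and 356 and 328 at 36 h. Every treated library exceeded both untreated ones. The rise was 0.13 ± 0.04 (SE) at 24 h (adjusted p 0.0238) and 0.13 ± 0.04 at 36 h (adjusted p 0.0189). The 24 h call was lost without replicate 1 at 0 h (adjusted p 0.116) or without either 24 h library (0.186 and 0.0681), and the 36 h call without replicate 1 at 0 h (0.0962) or at 36 h (0.279).

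Idi1 (chr13:8885501-8892451, plus strand), the isopentenyl diphosphate isomerase, was the only one of the 8 that passed as a fall in the main fit. It gave 84.0 and 86.4 CPM at 0 h, 89.3 and 90.6 at 12 h, 81.0 and 86.6 at 18 h, 86.1 and 81.7 at 24 h and 76.7 and 74.8 at 36 h. Only the 36 h pair lay below both untreated libraries. The 36 h change was -0.16 ± 0.05 (SE) on the log2 scale (adjusted p 0.0115), and the call was lost without replicate 2 at 0 h (0.0631) or replicate 2 at 36 h (0.0555).

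Fdft1 (chr14:63145153-63177793, minus strand), squalene synthase and the first step committed to sterols, had the largest change of the 8. It gave 58.7 and 59.1 CPM at 0 h, 69.0 and 71.5 at 12 h, 63.3 and 63.3 at 18 h, 64.2 and 67.6 at 24 h and 72.2 and 77.0 at 36 h. All 8 treated libraries lay above the untreated pair, and the 12 and 36 h pairs lay above those of 18 and 24 h. The log2 changes in time order were 0.26, 0.11, 0.16 and 0.35, each ± 0.05 (SE). Their adjusted p-values were 0.0153, 0.218, 0.0238 and 4.36e-06, so it rose at 12, 24 and 36 h. It was also the 1 of 8 that passed between 24 and 36 h, where 14.7% of genes did, with 0.19 ± 0.05 and an adjusted p of 0.0128. The 36 h call held in each alternative tried. The 12 h call was lost without either 12 h library (adjusted p 0.173 and 0.263) or replicate 2 at 0 h (0.0852), the 24 h call without either 0 h library (0.0651 and 0.0765) or replicate 2 at 24 h (0.239), and the step from 24 to 36 h without replicate 1 at 24 h (0.189) or replicate 2 at 36 h (0.129). The number passing between 24 and 36 h was then 0 of 8, and 2 of 8 without either 0 h library or replicate 1 at 36 h.

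Sqle (chr15:59315077-59331192, plus strand), squalene epoxidase and a second control point of the pathway, gave 124 and 128 CPM at 0 h, 125 and 129 at 12 h, 122 and 117 at 18 h, 120 and 120 at 24 h and 123 and 120 at 36 h. It passed at no time in the main fit, with log2 estimates between -0.07 and 0.02, and at 36 h the 95% interval ran from -0.12 to 0.05. With total-count scaling Sqle stood at -0.12 at 36 h and passed in edgeR (adjusted p 0.0482). Lss (chr10:76531588-76557138, plus strand), which cyclises oxidosqualene to lanosterol, gave 57.4 and 59.1 CPM at 0 h, 66.7 and 63.5 at 12 h, 63.2 and 63.7 at 18 h, 60.1 and 60.1 at 24 h and 60.6 and 65.2 at 36 h. Its 8 treated libraries lay above the untreated pair, but it passed at no time in the main fit, with 0.12 ± 0.05 (SE) and an adjusted p of 0.0759 at 36 h.

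Cyp51 (chr5:4081145-4104746, minus strand) gave 93.6 and 91.0 CPM at 0 h, 101 and 103 at 12 h, 101 and 100 at 18 h, 100 and 103 at 24 h and 101 and 102 at 36 h. All 8 treated libraries lay above the untreated pair and within 100 to 103 CPM. The log2 changes in time order were 0.15, 0.13, 0.14 and 0.15, each ± 0.04 (SE). Their adjusted p-values were 0.171, 0.0655, 0.0239 and 0.0104, so it rose at 24 and 36 h. The 24 h call was lost without replicate 2 at 0 h (0.145), replicate 2 at 12 h (0.0501) or either 24 h library (0.056 and 0.202), and the 36 h call without replicate 2 at 0 h (0.0782).

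**Figure D2:**
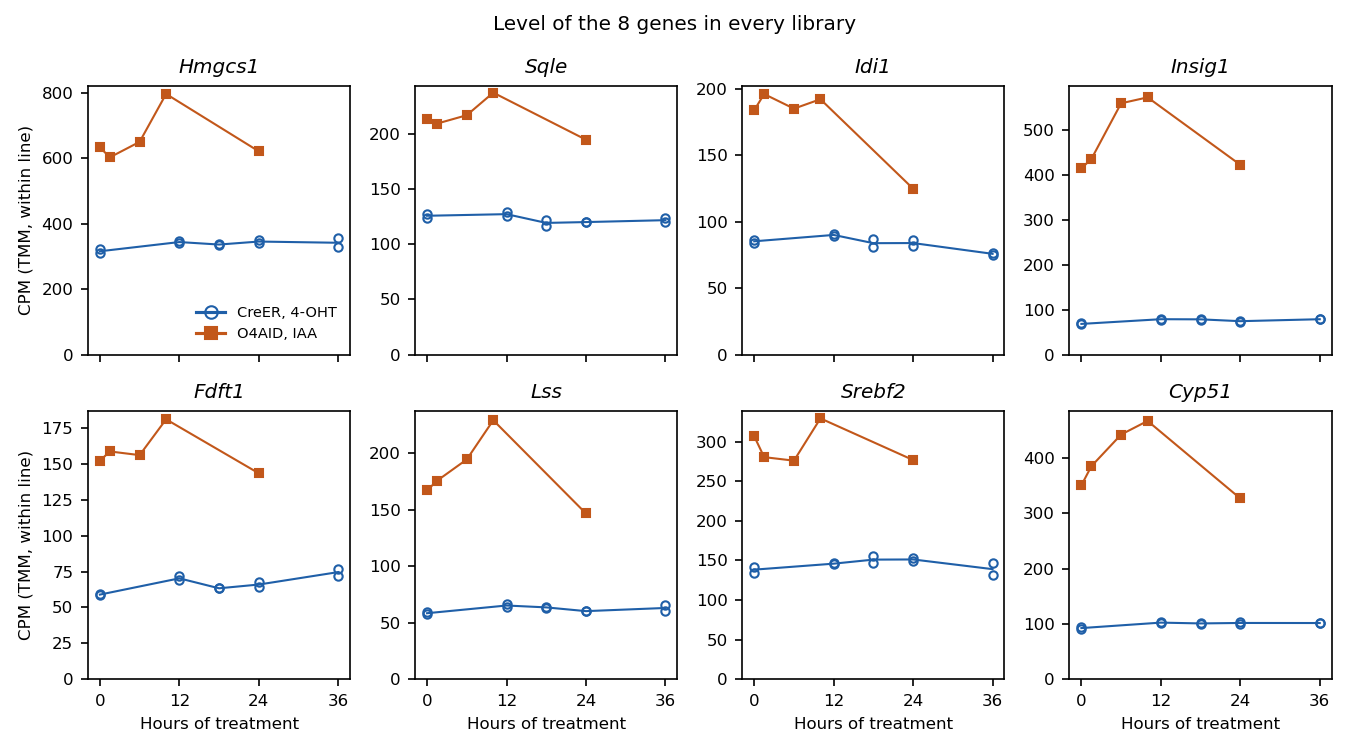
CPM of each gene in all 15 libraries against hours of treatment, scaled within each line, with lines through the time means. The CreER circles (2 per time) stay within narrow bands, while the O4AID squares (1 per time) are highest at 10 h for 7 of the 8 genes and lower at 24 h than at 10 h for all 8.

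The O4AID course followed the genes over 24 h of auxin, which removes OCT4 protein directly. The genes were highest around 10 h and lower again at 24 h. At 10 h all 8 lay above the untreated library with their whole 95% counting interval above 0 on the log2 scale, against 29.3% of 13737 genes. At 24 h all 8 lay below the 10 h library with their whole interval below 0, against 35.2% of 13815 genes. Past 2-fold against 0 h were 0 of 8 at 1.5, 6, 10 and 24 h, where 0.110%, 1.19%, 2.63% and 8.27% of genes were. The intervals cover counting error only, and with 1 library a time no p-value can be given. They are narrower for genes with more reads. The 8 had 6015 to 32655 reads per O4AID library, while the genes compared go down to a mean of 1 CPM. The shares with a whole interval above or below 0 are therefore not a like measure for the 8. The median log2 change of the 8 was 0.06, 0.04, 0.29 and -0.12 at the 4 times, beside -0.01, 0.00, -0.02 and -0.03 over all genes.

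The regulators differed in timing. Srebf2 gave 307, 280, 276, 329 and 277 CPM at 0, 1.5, 6, 10 and 24 h, so it dipped by 0.13 and 0.15 on the log2 scale at the first 2 times before its highest level at 10 h. Insig1 gave 414, 434, 558, 571 and 422 CPM. It was already 0.43 higher at 6 h (0.40 to 0.46), 0.46 higher at 10 h (0.44 to 0.49) and 0.03 above 0 h at 24 h, where its interval held 0.

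Among the enzymes that lead to squalene, Hmgcs1 gave 634, 603, 651, 797 and 622 CPM, with 0.33 (0.31 to 0.35) at 10 h. Idi1 gave 184, 196, 185, 192 and 125 CPM, and was the 1 gene whose highest library was not that of 10 h. Fdft1 gave 152, 159, 156, 181 and 143 CPM, with 0.25 (0.20 to 0.30) at 10 h. Idi1 also had the lowest 24 h value, at -0.56 (-0.60 to -0.51) against 0 h and -0.62 against 10 h.

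Among the enzymes from squalene onwards, Sqle gave 213, 209, 217, 237 and 195 CPM, with 0.15 (0.11 to 0.19) at 10 h. Lss gave 167, 175, 194, 229 and 147 CPM, rising over the first 4 libraries to 0.45 (0.41 to 0.50). Cyp51 gave 351, 385, 443, 467 and 327 CPM with the same order of libraries up to 0.41 (0.38 to 0.44). From 10 to 24 h, Lss dropped by 0.64, Cyp51 by 0.51 and Insig1 by 0.44 on the log2 scale. Over the same interval Hmgcs1 dropped by 0.36, Fdft1 by 0.33, Sqle by 0.28 and Srebf2 by 0.25.

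The 10 h library was the highest of the 5 for 7 of the 8 genes, against 12.4% of 13771 genes. Under total-count scaling it was the highest for 8. At 24 h against 0 h, 7 of the 8 were lower with TMM or RLE scaling, but 4 were lower and 4 higher with total-count scaling, which moved the median of all genes from -0.03 to 0.08. Under that scaling Idi1 was at -0.44 and Insig1 at 0.14, while the drop from 10 to 24 h was seen in 8 of 8 under each scaling. For 5 of the 8, both CreER libraries at 24 h lay above both at 0 h while the O4AID library at 24 h lay below that of 0 h, as it did for 10.2% of 12732 genes. Of these 5, only Hmgcs1, Fdft1 and Cyp51 passed in CreER at 24 h. The 5 listed targets of the aryl hydrocarbon receptor, a sensor of small aromatic compounds, summed to 159, 185, 373, 549 and 847 CPM over the same 5 libraries and to between 170 and 199 CPM in CreER. In CreER, 4 of the 5 rose and 1 fell at 24 h, where 2084 and 2005 of 18969 genes did. At 36 h 3 rose and 1 fell, against 19.4% and 17.2% of genes. In CreER Cyp1b1 rose by 1.28 ± 0.08 (SE) and Nqo1 by 0.67 ± 0.05 at 36 h, while Tiparp, the most abundant of the 5 in CreER, fell by 0.29 ± 0.04. The 36 h call of Cyp1a1 was lost in edgeR with total-count scaling (adjusted p 0.0553) and in DESeq2 (0.129). Their part in the sterol genes' course was not tested. Cyp1a1 gave 0.704, 10.7, 74.1, 170 and 277 CPM in O4AID.

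**Figure D3:**
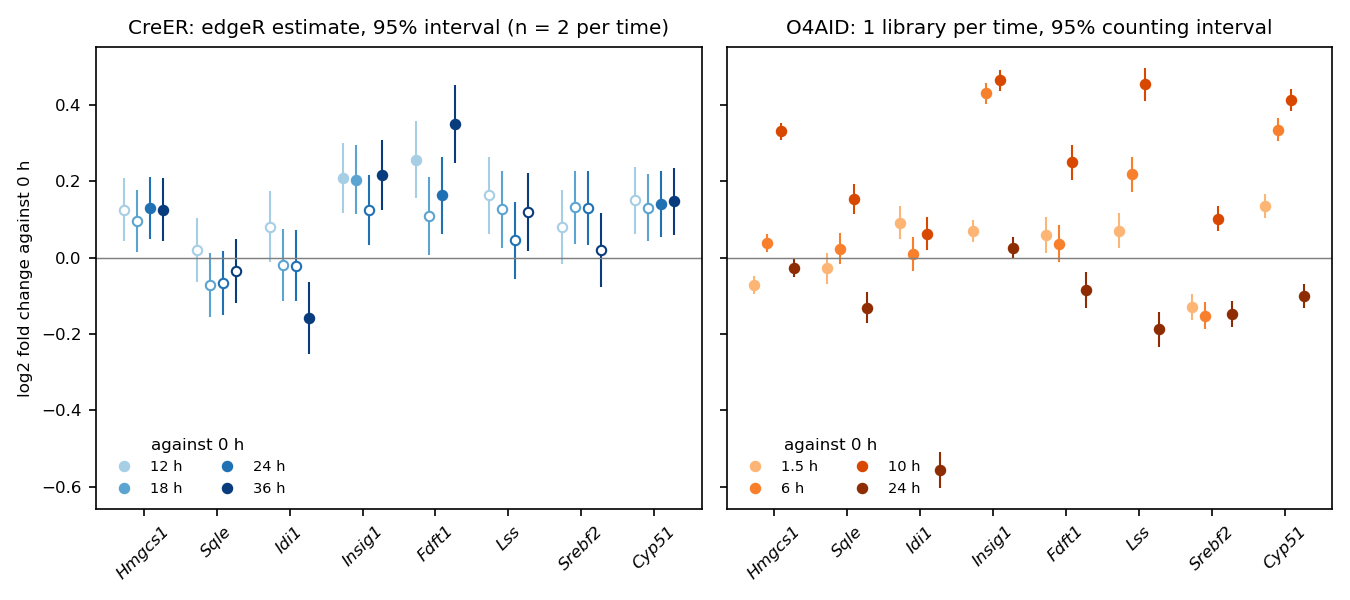
Log2 change of each gene against 0 h, with CreER on the left (edgeR estimate, 95% interval; filled points pass an adjusted p of 0.05) and O4AID on the right (1 library per time, 95% counting interval). The 10 h points lie above 0 for all 8 genes in O4AID, and no point in either line reaches a log2 change of 1.

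The other genes of the pathway came from lists of enzymes, regulators and transporters by step. At 36 h in CreER, 4 of the 5 other mevalonate genes listed rose, 3 of 9 genes after lanosterol rose and 1 fell, 3 of 5 genes of SREBP processing rose, and 3 of 5 genes of sterol uptake and transport rose. The share of all genes that rose was 19.4% and that fell 17.2%. The median log2 changes of the 4 lists were 0.39, 0.04, 0.20 and 0.23.

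Total-count scaling ended the 36 h calls of Fdps, Nsdhl, Mbtps2, Srebf1 and Stard4 named below, with adjusted p-values of 0.0748, 0.186, 0.161, 0.0652 and 0.138. DESeq2 ended those of Fdps, Nsdhl, Mbtps2 and Stard4, with 0.0946, 0.0969, 0.057 and 0.0879, and a fit to only the 4 libraries compared ended those of Fdps (0.063), Nsdhl (0.0545) and Lbr (0.0733).

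In the mevalonate list, Pmvk and Mvd, the phosphomevalonate kinase and the decarboxylase, had the largest changes. Pmvk gave 37.6 and 33.4 CPM at 0 h and 52.0 and 57.3 at 36 h, a rise of 0.64 ± 0.06 (SE, adjusted p 8.25e-09). Mvd gave 49.1 and 47.9 CPM at 0 h and 70.4 and 72.0 at 36 h, a rise of 0.57 ± 0.06 (adjusted p 3.73e-09). Mvk rose by 0.30, and Fdps by 0.39 at 5.37 to 8.89 CPM, a level that is uncertain where reads are shared with near-identical copies. The Fdps call was lost without replicate 1 at 0 h (adjusted p 0.179) or replicate 2 at 36 h (0.497).

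In O4AID the same 5 genes were all above 0 h at 10 h (median 0.33), as were 6515 of 13737 genes, and all below the 10 h level at 24 h (median -0.55), as were 7103 of 13815 genes. Acat2, which makes acetoacetyl-CoA, had the lowest 24 h value of the list, at -0.36 (-0.41 to -0.32). Pmvk gave 151, 154, 174, 194 and 146 CPM and Mvd 89.6, 95.8, 92.3, 109 and 71.3 CPM, with the highest library at 10 h for both.

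After lanosterol, Msmo1, the sterol C4-methyl oxidase, rose at each CreER time. It gave 90.7 and 90.3 CPM at 0 h, 111 and 110 at 12 h and 122 and 132 at 36 h, with log2 changes of 0.29, 0.23, 0.25 and 0.50 at the 4 times (adjusted p 1.09e-09 at 36 h). In O4AID it gave 270, 295, 324, 361 and 251 CPM, with its highest library at 10 h. Sc5d rose by 0.29 ± 0.07 in CreER at 36 h, and Nsdhl by 0.20 ± 0.07, a call lost without replicate 2 at 0 h (adjusted p 0.215) or at 36 h (0.116). Lbr, the sterol reductase of the nuclear envelope, fell by 0.13, a call lost without replicate 2 at 0 h (0.287) or replicate 1 at 36 h (0.0689). In O4AID Hsd17b7 had the lowest 24 h value of this list, at -0.66 (-0.76 to -0.55).

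Of the processing genes, Scap, the SREBP escort, gave 45.1 and 40.7 CPM at 0 h and 52.7 and 58.6 at 36 h in CreER, a rise of 0.39 ± 0.06 (adjusted p 1.47e-05). In O4AID Scap gave 47.9, 47.7, 53.1, 60.6 and 76.7 CPM, so it did not drop after 10 h. Mbtps2 and Srebf1 rose by 0.20 and 0.24 in CreER at 36 h. The Mbtps2 call was lost without replicate 2 at 0 h (0.0932) or replicate 1 at 36 h (0.117), and that of Srebf1 without replicate 2 at 0 h (0.0778) or at 36 h (0.215).

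Of the uptake and transport genes, Mylip, a ubiquitin ligase that limits lipoprotein uptake, gave 4.97, 5.24, 9.25, 11.3 and 22.2 CPM in O4AID and rose by 0.65 ± 0.12 in CreER at 36 h. Scarb1, a lipoprotein receptor, rose by 0.49 in CreER at 36 h, and Stard4, a sterol carrier, by 0.23, a call lost without replicate 2 at 0 h (0.078) or replicate 1 at 36 h (0.0911). Lrp8, an apolipoprotein E receptor, gave 38.7, 34.1, 36.3, 33.7 and 15.6 CPM. At 24 h, 1 of the 5 (Mylip) was past 2-fold higher and 1 (Lrp8) past 2-fold lower, against 4.75% and 3.52% of genes.

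**Figure D4:**
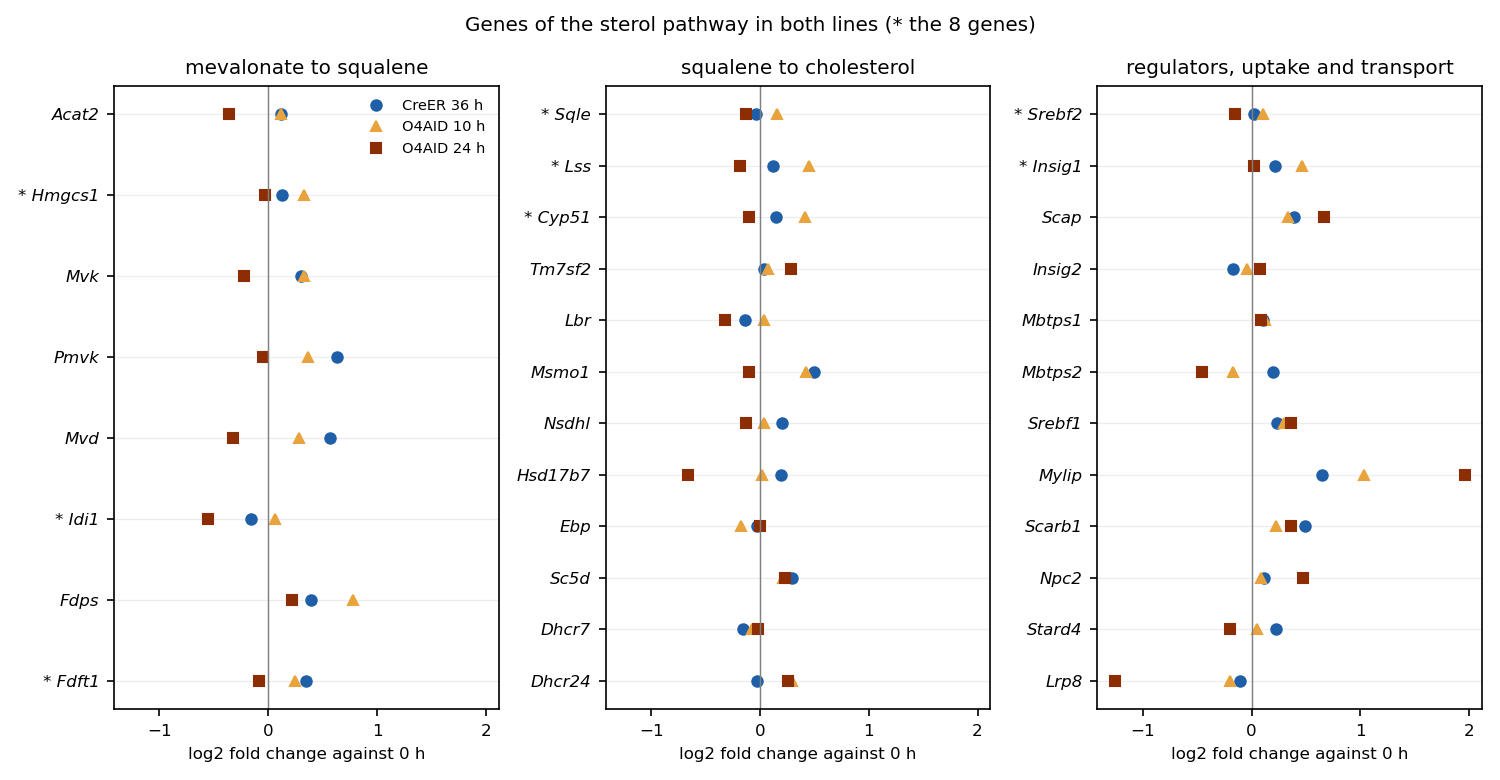
Log2 change against 0 h of the sterol genes by pathway step, with stars for the 8 genes. Circles are CreER at 36 h, triangles O4AID at 10 h and squares O4AID at 24 h; the 24 h square lies left of the 10 h triangle for all 8 genes up to squalene, and Mylip has the square farthest to the right.

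The genes whose profile was most like the mean profile of the 8 were taken over the 15 libraries, centred within each line, among 8195 genes with at least 10 CPM in both lines. They were Kdm5c (Pearson r 0.93), Ankrd11 (0.93), Dynlt1c (0.89), Mettl5 (0.88) and Map1a (0.88). Mvk was the 14th of the genes outside the 8, at 0.84. The 8 themselves ran from 0.59 (Srebf2) to 0.95 (Lss), and the median over all genes was 0.04. Each of the 8 is part of the mean profile, so its r is raised by construction and cannot be weighed against that median. The 15 points share libraries and scaling with the mean profile, 27 genes outside the 8 reached 0.8, and these r are a description.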

How the data were processed

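RNA was ribosome-depleted, made into directional libraries and sequenced as paired ends on a HiSeq4000. Per the labels and the study's methods, the authors trimmed reads with Trim Galore 0.1.4, aligned them to GRCm38 (mm10) with TopHat2 2.1.0 and deposited raw counts per gene from featureCounts 1.5.1 with the Ensembl annotation. The strand and multi-mapping settings were not given in the sources used here, so antisense and near-identical genes are uncertain. Of 48801 entries in each of 15 files, 92 spike-ins held 0 reads and were left out. Reads of genes without a symbol were 0.0412% of all. A deposited table of TMM-scaled values was not used.

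From the counts, edgeR 4.0.16 (R 4.3.3) fitted the 10 CreER libraries with TMM factors, filterByExpr and robust quasi-likelihood tests, with Benjamini-Hochberg adjustment over 18969 genes and a threshold of 0.05. The study tested merged replicates with another tool. O4AID values are log2 ratios of CPM plus 1 among genes with a mean of at least 1 CPM, with 95% Wilson intervals for the share of reads in either library. All comparisons within a line share its 0 h libraries. The labels do not say that replicates were separate cultures, so p-values measure the spread between these samples. Replicates differed beyond sampling noise (chi-square per degree of freedom 3.27 to 7.76) and none was a duplicate. The fit was tested on simulated counts. Named genes are the 8 and, per list, up to 4 with the largest passed change at 36 h in CreER and up to 3 at 24 h in O4AID with at least 1 CPM. Some list genes are not reported here and were left out of the list counts. The members and lists were chosen with earlier results of these data known. Alternatives were DESeq2 1.42.0, other scalings, filters and pseudocounts, subsets of libraries and a replicate block. Figures used matplotlib.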

Additional observations from a re-analysis of the deposited data

Results flagged for a closer look

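For 5 genes the 24 h change went opposite ways in the lines: both CreER replicates at 24 h lay above both untreated ones, and the O4AID library at 24 h lay below its untreated one. This was so for 10.2% of 12732 genes. The difference, O4AID minus CreER on log2(CPM + 1), was -0.16 for Hmgcs1, -0.24 for Fdft1, -0.23 for Lss, -0.28 for Srebf2 and -0.24 for Cyp51. The CreER means of these genes at 24 h ran from 0.04 (Lss) to 0.16 (Fdft1), and the O4AID values from -0.19 (Lss) to -0.03 (Hmgcs1). The difference was not tested, because O4AID has 1 library per time. Under total-count scaling, the O4AID values were 0.08 for Hmgcs1, 0.03 for Fdft1 and 0.01 for Cyp51, so the opposite direction of these 3 rests on the scaling. They are also the 3 that passed in CreER at 24 h, where Lss and Srebf2 did not pass. The O4AID values of Lss (-0.08) and Srebf2 (-0.04) stayed below 0 under that scaling.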

How the results depend on the processing

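Of 12 CreER results of the 8 genes that passed, all 12 kept their direction in every alternative run, and 10 missed the threshold in at least 1. The cause was not tested. The number of the 8 passing at 12 h (2) was 1 with RLE factors, DESeq2 or only the 4 libraries compared and 0 with total-count scaling. At 24 h (3) it was 5 with total-count scaling or at least 10 counts in every library, 1 with only the 4 libraries and 0 with DESeq2. At 36 h (5) it was 3 with DESeq2 or only the 4 libraries, and from 24 to 36 h (1) it was 2 with total-count scaling or at least 10 counts in every library. With total-count scaling, 7 of the 8 estimates from 24 to 36 h were below 0. Fdft1, the 1 above 0 (0.08), lost its call there, so the 2 calls under that scaling were falls. Without 1 replicate, the counts ran from 0 to 2 at 12 h, 0 to 3 at 18 h, 0 to 5 at 24 h, 3 to 5 at 36 h and 0 to 2 from 24 to 36 h. Direction turned in results that had not passed. With total-count scaling, Sqle at 12 h was -0.0214, Idi1 at 24 h 0.0019, Srebf2 at 36 h -0.0647, and from 24 to 36 h Sqle was -0.0767, Insig1 -0.0159, Lss -0.0337 and Cyp51 -0.0992. With no filter, Cyp51 from 24 to 36 h was -0.0015. Without 1 replicate, Sqle at 12 h ran from -0.0036 to 0.0374, Idi1 at 18 h ran from -0.0646 to 0.024, Idi1 at 24 h ran from -0.0583 to 0.0099, Srebf2 at 36 h ran from -0.0621 to 0.092, Hmgcs1 from 24 to 36 h ran from -0.0643 to 0.0543, and Cyp51 over the same step ran from -0.0182 to 0.0334.

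Total-count scaling moved the median log2 change of all genes to -0.10 from 24 to 36 h. The genes higher and lower there were 1542 and 1243 with TMM and 682 and 3205 with total counts, against 49 and 26 or 31 and 53 at 12 h, 2084 and 2005 or 2277 and 1437 at 24 h, and 3686 and 3262 or 2696 and 4802 at 36 h. DESeq2 called 989, 2585 and 1671 genes at 18 h, 24 h and from 24 to 36 h, where edgeR called 1616, 4089 and 2785, and with no filter edgeR called 222 at 12 h in place of 75. Without 1 replicate, the counts over all genes ran from 8 to 218 at 12 h, 582 to 2006 at 18 h, 2343 to 4509 at 24 h and 1491 to 3165 from 24 to 36 h. With the replicate number as a block, the counts of the 8 were 2, 1, 4, 5 and 1. Replicates of the same number did not deviate together (r -0.04 to 0.08 over 10 pairs of groups), so the pairing is by number only. The block ended no call of the genes named and moved no count by over 1.5 times. In O4AID, 0 of 8 were past 2-fold under each alternative. Alternatives chosen after seeing the data gave 7 or 8 genes highest at 10 h, 8 higher in untreated O4AID, 8 lower at 24 h than at 10 h, and 7 or 8 above the earlier reference at 10 h. Pseudocounts of 0.1 and 5 CPM called 45 and 7 genes at 1.5 h in place of 15, 300 and 62 at 6 h in place of 163, 576 and 147 at 10 h in place of 361, 1636 and 490 at 24 h in place of 1144, and 705 and 102 from 10 to 24 h in place of 375. With the 1.5 h library as reference, 87 genes were past 2-fold at 6 h.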

Other observations

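Of 10 fatty acid synthesis genes, many of them targets of SREBP1, 6 rose and 3 fell at 36 h in CreER, where 19.4% of all genes rose and 17.2% fell, with a median log2 change of 0.18 beside 0.01 over all genes. Fads2, the delta-6 desaturase, gave 61.6 and 56.2 CPM at 0 h and 105 and 107 at 36 h, a rise of 0.87 ± 0.05 (SE, adjusted p 4.72e-13 in edgeR). Fads1, the delta-5 desaturase, rose by 0.57 ± 0.06 (adjusted p 9.41e-09), while Acly and Scd2 fell by 0.13 and 0.14. Acss2 rose by 0.43, a call lost without replicate 2 at 0 h (0.175) or replicate 1 at 36 h (0.249), with total-count scaling (0.0588) and in DESeq2 (0.105). In O4AID 9 of the 10 lay above 0 h at 10 h, with a median of 0.54, beside 6515 of 13737 genes and a median of -0.02. Fasn, the fatty acid synthase, gave 642, 729, 940, 1148 and 730 CPM over the 5 times, highest at 10 h. Fads2 gave 114, 114, 142, 180 and 192 CPM and Scd1 779, 724, 882, 1118 and 1180 CPM, so both were highest at 24 h. Acly, Scd2 and Fasn were chosen after their values were seen.

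Of 6 genes of sterol efflux and storage, 2 rose and 2 fell at 36 h in CreER, where 19.4% of all genes rose and 17.2% fell. Their median was 0.16, beside 0.01 over all genes. Soat1, which esterifies cholesterol for storage, gave 61.8 and 59.0 CPM at 0 h and 80.0 and 81.1 at 36 h in CreER (0.43 ± 0.05, adjusted p 4.74e-07) and 40.2, 40.1, 55.9, 67.4 and 138 CPM in O4AID. Lpcat3, a phospholipid remodelling enzyme, rose by 0.42 in CreER at 36 h and stood at 0.66 (0.60 to 0.72) in O4AID at 24 h. The exporter gene Abca1 fell by 0.29 in CreER at 36 h, a call lost without replicate 2 at 0 h (adjusted p 0.155), and was 0.50 above 0 h in O4AID at 24 h. Abcg1, another exporter gene, fell by 0.35 in CreER at 36 h, a call lost without replicate 1 at 0 h (0.111) or replicate 2 at 36 h (0.0941), and was 0.30 above 0 h in O4AID at 24 h. Of the isoprenoid branch genes, 2 of 9 rose and 4 fell in CreER at 36 h, against 19.4% and 17.2% of all genes. The share that rose was near that of all genes. Fntb, a farnesyltransferase subunit, was at -0.36 ± 0.06 there (adjusted p 1.06e-05 in edgeR) and at -0.46 (-0.54 to -0.38) in O4AID at 24 h.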
